A study of Canis lupus familiaris with 6 samples.

Results

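Secreted Wnt antagonists are extracellular proteins that keep Wnt ligands or their receptors from signalling. The genes followed here were FRZB, SFRP1, SFRP2, DKK2, DKK3 and WIF1, measured on arrays of left ventricle from Great Danes with cardiomyopathy and from control dogs. They were selected on measured values of these same arrays, their affected minus control differences among them, so those differences are given as a description with no test. Every probe set whose annotation holds exactly 1 gene symbol, equal to one of these names, was taken without a filter on its values. This gave 12 probe sets for the 6 genes, of 42924 probe sets other than controls and 15115 named genes on the array.

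Total RNA from frozen left ventricle was hybridised to Affymetrix canine arrays, 1 per dog. The affected group held 3 Great Danes, a female of 9 years (affected 1) and males of 7 years (affected 2 and affected 3), whose tissue the labels call DCM. The control group held a male Labrador retriever of 12 years (control 1), a female St. Bernard of 10 years (control 2) and a male Greater Swiss Mountain dog of 4 years (control 3). No control was a Great Dane, so breed and disease cannot be told apart. Arrays are labelled as biological replicates, and no treatment is named for either group.

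Each deposited value is a log2 difference from the median of that probe set over the 6 arrays. A value of 1 is a 2-fold higher signal than that median, and a value of 0 says nothing of how strongly a gene was expressed. Levels of different genes therefore could not be ranked, and the labelled tissue could not be checked by the presence of cardiac markers. Centring also means that where the groups do not overlap, the lowest affected and the highest control value lie equally far from 0. In bulk tissue, fewer cells of a type and less RNA per cell cannot be told apart. Precision is limited by the 3 arrays per group, and all group values below are means ± SD of n = 3 dogs.

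Wnt ligands bind Frizzled receptors together with the co-receptors LRP5 and LRP6, and in the beta-catenin branch this lets beta-catenin accumulate and switch on target genes with TCF and LEF factors. FRZB and the SFRP proteins carry a cysteine-rich domain like that of the Frizzled receptors and bind Wnt ligands outside the cell, as does WIF1 through a domain of its own. The Dickkopf proteins act at the co-receptors instead, although DKK3 is a divergent member of that family. In the heart this signalling is active in development and is taken up again in injury and scar formation, where fibroblasts are a known source of several of the antagonists.

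Among the ligand-binding antagonists, FRZB was the gene with the widest separation of the groups. Its probe set read 1.93, 1.78 and 0.78 on affected 1, affected 2 and affected 3, against -1.48, -0.78 and -1.20 on control 1, control 2 and control 3. All affected hearts lay above all control hearts, and the lowest affected value exceeded the highest control value by 1.57. The means were 1.5 ± 0.62 in affected and -1.15 ± 0.35 in control hearts, a difference of 2.65 on the log2 scale or 6.29-fold. That difference ran from 2.44 to 3.01 when any single array was left out, and it was 2.94 for affected 2 alone against the controls.

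SFRP1, a relative of FRZB in the same family, read 1.24, 0.13 and 0.91 on affected 1, affected 2 and affected 3, against -1.08, -0.13 and -0.39 on control 1, control 2 and control 3. The groups did not overlap, but affected 2 stood only 0.25 above control 2. Means were 0.76 ± 0.57 in affected and -0.53 ± 0.49 in control hearts, 1.29 apart or 2.45-fold. For affected 2 alone against the controls the difference was 0.66, and with single arrays left out it lay between 1.02 and 1.61.

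SFRP2, also of this family and a product of stromal cells in many tissues, was high in affected 1. Of its 3 probe sets, the one with the suffix S1_s_at read 7.46, 2.42 and -0.06 on affected 1, affected 2 and affected 3, against -0.03, -0.16 and 0.03 on the controls in the same order. A second one read 7.88, 0.41 and -0.05 on the affected arrays, against -0.02, -0.05 and 0.02 on the control arrays. Affected 1 stood far above every other array in both, affected 2 came next at very different values in the 2 probe sets, and affected 3 lay among the controls.

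The remaining SFRP2 probe set spanned only 0.16 over all 6 arrays, from -0.07 on affected 2 to 0.09 on affected 1. The probe sets of SFRP2 therefore disagreed, and the annotation does not say which transcript each one reads. Averaged over the 3 probe sets, the gene stood at 2.0 ± 2.76 in affected and -0.01 ± 0.06 in control hearts, so the difference of 2.02 was smaller than the spread within the affected group. Leaving out affected 1 gave 0.45 and leaving out affected 3 gave 3.04. With affected 2 as the only affected array it was 0.93. Among the male dogs it was 0.415, and between the 2 females, affected 1 and control 2, it was 5.22. Without the flat probe set, whose range fell in the lowest 40%, the difference was also 3.04.

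WIF1, which binds Wnt ligands directly, was high in affected 2 instead. Its A1_at probe set read -0.12, 2.69 and 0.49 on affected 1, affected 2 and affected 3, against -0.02, -0.12 and 0.02 on the controls. Its S1_s_at probe set read -0.15, 1.42 and 0.14 on the affected arrays, against -0.08, -0.12 and 0.08 on the control arrays. For its S1_at probe set the affected values were -0.12, 1.23 and -0.16, against 0.11, -0.11 and 0.15 in the controls. All 3 probe sets put affected 2 on top, with affected 1 at the level of the controls, and the groups overlapped in each.

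The WIF1 mean over its probe sets was 0.60 ± 1.03 in affected and -0.01 ± 0.10 in control hearts, 0.61 apart. The difference was 0.03 without affected 2, 0.98 without affected 1, 1.79 for affected 2 alone against the controls and 0.93 among the male dogs.

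**Figure D1:**
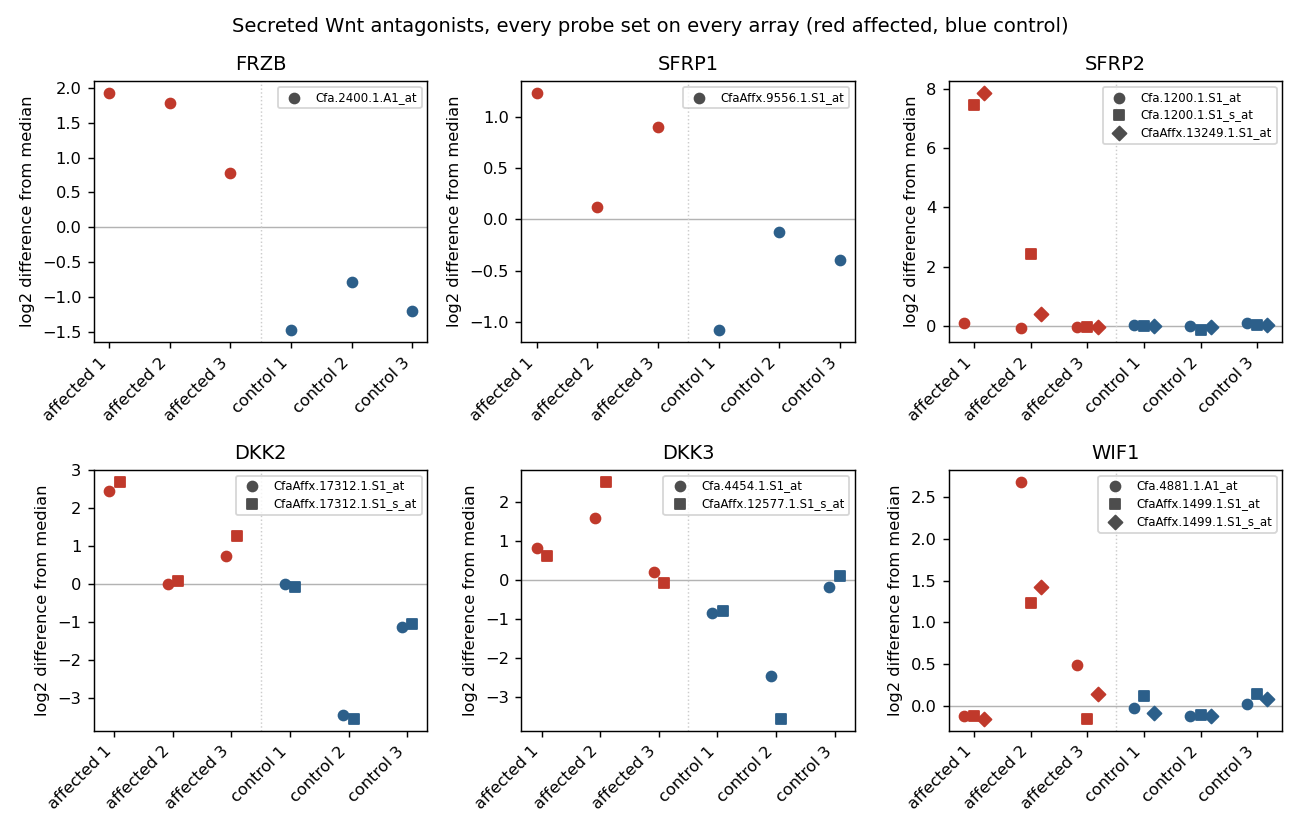
Deviation from the probe set median on the log2 scale (y axis, a separate scale in each panel) for every probe set of the 6 genes on each array (x axis), affected arrays in red and control arrays in blue, with marker shapes for probe sets of the same gene. FRZB separates the groups by 1.57, SFRP2 reaches 7.88 on affected 1 alone, WIF1 reaches 2.69 on affected 2 alone, and DKK2 and DKK3 have their lowest values on control 2.

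In both Dickkopf genes the control array farthest from the median, control 2, lay farther from it than any affected array. DKK2, which can block or, depending on its partners, weakly stimulate signalling through LRP6, was measured by 2 probe sets. The S1_s_at probe set read 2.71, 0.07 and 1.28 on affected 1, affected 2 and affected 3, against -0.07, -3.57 and -1.06 on control 1, control 2 and control 3. The S1_at probe set read 2.45, -0.01 and 0.74 on the affected arrays, against 0.01, -3.45 and -1.15 on the control arrays. Affected 2 and control 1 were within 0.14 of each other in both probe sets, in opposite order, so the groups just separated in the first and just overlapped in the second.

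The mean of the DKK2 probe sets was 1.21 ± 1.29 in affected and -1.55 ± 1.78 in control hearts, 2.75 apart or 6.74-fold. The 2 females lay at the ends of this range, affected 1 at 2.58 and control 2 at -3.51. Among the 4 males the difference was 1.09, between the females 6.09, without control 2 it was 1.77, and for affected 2 alone against the controls it was 1.58. Each group had 1 female and 2 males and ages were not matched, and the part of sex and age in the differences of DKK2 and SFRP2 was not tested beyond these values.

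DKK3, the divergent Dickkopf gene, had its highest value on affected 2. Its S1_at probe set read 0.80, 1.59 and 0.19 on affected 1, affected 2 and affected 3, against -0.85, -2.46 and -0.19 on control 1, control 2 and control 3. Its S1_s_at probe set read 0.61, 2.51 and -0.09 on the affected arrays, against -0.81, -3.56 and 0.09 on the control arrays. Affected 3 and control 3 were the close neighbours here, separated in the first probe set by 0.38 and in reverse order in the second.

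Averaged over both probe sets, DKK3 was at 0.94 ± 1.02 in affected and -1.30 ± 1.53 in control hearts, a difference of 2.23 or 4.70-fold. It was 1.38 without control 2, the array on which both Dickkopf genes were lowest. Among the male dogs it was 1.49, and between the females 3.72. For affected 2 alone against the controls the DKK3 difference was 3.345, and without affected 2 it was 1.68.

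In the order of the differences in gene means, DKK2 at 2.75 and FRZB at 2.65 came first, then DKK3 at 2.23, SFRP2 at 2.02, SFRP1 at 1.29 and WIF1 at 0.61. Each step in this order was smaller than the SD of DKK2 or DKK3 within either group, and these are differences, not levels. Of the 12 probe sets, 11 were higher in affected hearts, and their median difference was 2.23, beside -0.08 over all probe sets. At least 2-fold higher were 9 of the 12, beside 2.53% of all probe sets, and 0 were at least 2-fold lower, beside 0.764% of all. In 4 probe sets, 1 each of FRZB, SFRP1, DKK2 and DKK3, all affected values lay above all control values, beside 5.37% of all probe sets. The genes had been picked for such differences, so nothing is read from these counts.

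With single arrays left out, 8 or 9 of the 12 probe sets were at least 2-fold higher, beside 1.70% to 3.96% of all probe sets. With affected 2 as the only affected array 9 were, beside 2.51% of all.

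**Figure D2:**
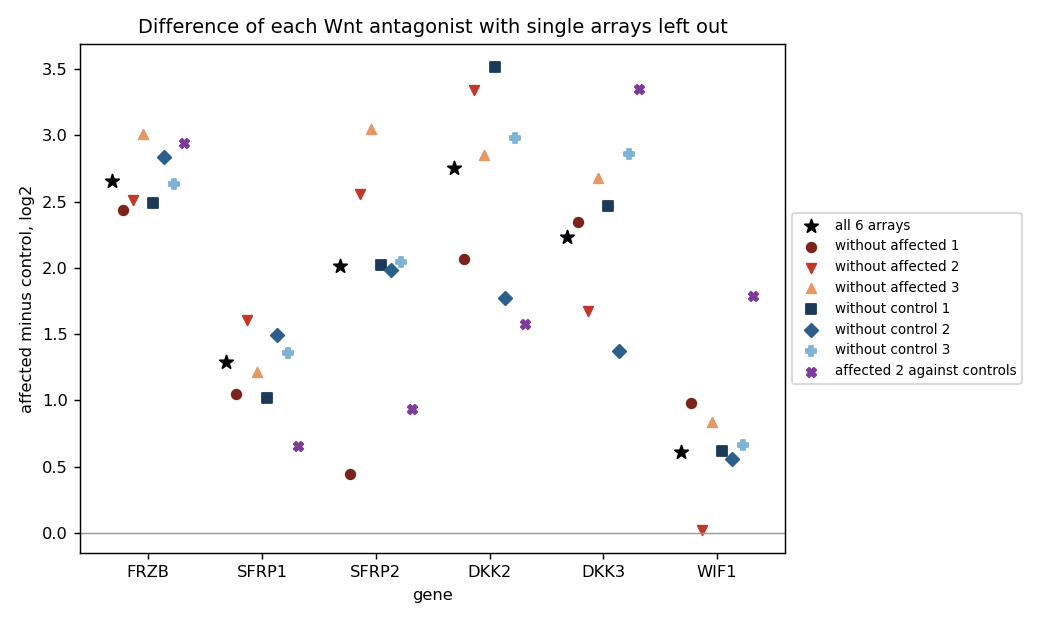
Affected minus control difference on the log2 scale (y axis) for the 6 genes, each the average of its probe sets (x axis), with all 6 arrays (star), with each array left out in turn, and for affected 2 alone against the 3 controls. FRZB stays between 2.44 and 3.01, SFRP2 drops to 0.45 without affected 1, and WIF1 drops to 0.03 without affected 2.

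The 6 genes did not share 1 pattern over the arrays. Affected 1 held the highest value of FRZB, SFRP1, SFRP2 and DKK2, and affected 2 that of DKK3 and WIF1. Control 2 held the lowest value of SFRP2, DKK2 and DKK3, control 1 that of FRZB and SFRP1, and affected 1 that of WIF1. Over the 6 arrays Pearson's r between gene means was 0.83 for FRZB with SFRP1, 0.72 for DKK2 with DKK3 and 0.68 for DKK3 with WIF1. It was 0.07 for DKK2 with WIF1, 0.00 for SFRP1 with WIF1 and -0.10 for SFRP2 with WIF1. These 6 points share the group difference the genes were chosen by, so r is given as a description.

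Probe sets of the same gene ran together where they varied. Pearson's r over the 6 arrays was 1.00 for the DKK2 pair, 0.98 for the DKK3 pair, 0.93 to 0.99 among those of WIF1, and 0.96 for the SFRP2 probe sets that were high on affected 1. The flat SFRP2 probe set had r of 0.39 and 0.55 with the others. In SFRP2 and WIF1, r is set largely by a single array far above the rest, affected 1 and affected 2 in that order. On affected 2 the SFRP2 pair with r of 0.96 read 2.42 and 0.41.

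Other named genes with the most similar values over the 6 arrays were sought among about 7080 probe sets with a range of at least 1. For FRZB these were C20H19orf53, MCAM (a cell adhesion molecule of vessel walls) and ARL9, with r of 0.989, 0.986 and 0.978. SFRP1 was followed by the integrin subunit ITGB5 at 0.998, COMMD4 at 0.993 and TMEM98 at 0.985. For SFRP2 they were the aminopeptidase ANPEP at 0.999, the class II antigen gene DLA-DMA at 0.998 and the transporter ABCG2 at 0.997, all highest on affected 1. In number, 26 probe sets reached r over 0.95 with FRZB, 31 with SFRP1 and 103 with SFRP2.

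DKK2 was most like METTL16, DCAF13 and CYB5R1, at r of 0.996, 0.994 and 0.988. DKK3 was most like the ubiquitin ligase MIB1 at 0.973, the Z-disc protein NEBL at 0.964 and SART3 at 0.955, and it had 3 probe sets over 0.95, against 27 for DKK2. WIF1 was most like the serotonin receptor HTR2B at 0.995, CSAD at 0.992 and the growth arrest gene GAS1 at 0.992, with 36 over 0.95. HTR2B read 2.18 and GAS1 read 3.62 on affected 2, against values between -0.18 and 0.36 on the other arrays for both. These r rest on 6 points and are given as a description.

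Markers of other cell types in the ventricle varied alongside some of the genes. The median over 12 fibroblast markers, all measured, was 1.04, 0.05 and 0.61 on affected 1, affected 2 and affected 3, against -0.28, -0.14 and -1.30 on control 1, control 2 and control 3. Of these markers 10 were higher in affected hearts, with a median difference of 1.23, and 0 of their 29 probe sets passed the adjusted threshold. The median difference over all probe sets was -0.08. Also higher were 7 of 7 macrophage and monocyte, 6 of 8 endocardium and valve and 9 of 11 cardiomyocyte markers, with median differences of 0.84, 0.58 and 0.14. Fewer were higher for pericytes (1 of 6), endothelium (3 of 8), lymphocytes (2 of 7) and nerve and Schwann cells (0 of 4). FRZB was at 1.78 on affected 2, where the fibroblast median was 0.05, while SFRP1 at 0.13 and DKK2 at 0.03 stood near 0 there. Control 3 had the lowest fibroblast median, but not the lowest value of any of the 6 genes. The part of fibroblast number in these results was not tested.

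SFRP2 was highest on affected 1, the array on which the macrophage and adipocyte medians were also highest. The median of 7 macrophage and monocyte markers was 1.92 on affected 1 and -0.21 and 0.20 on affected 2 and affected 3, against 0.70, -0.42 and -0.71 on the controls. The median of 6 adipocyte markers was 1.28 on affected 1 and -0.16 and -0.10 on the other affected arrays, against 0.05, -0.32 and 0.13 on the controls. Endocardium and valve markers (8 of 8 measured) read 0.21, 0.26 and 0.01 on the affected arrays, against -0.25, -0.24 and -0.09 on the controls. Since all values are centred, no marker can be said to be absent, and the part of these cell types in the SFRP2 values was not tested.

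Cardiomyocyte markers (11 of 12 measured) had medians between -0.03 and 0.08 on the affected arrays, against -0.18 to 0.02 on the controls. Those of smooth muscle ran from -0.23 to 0.22 in affected and from -0.16 to 0.23 in control hearts. Pericyte medians ran from -0.15 to 0.06 in affected and from 0.03 to 0.24 in control hearts. Endothelium lay between -0.46 and 0.20 in affected and between -0.24 and 0.55 in control hearts, with its highest median on control 2, where DKK2 and DKK3 were lowest. Activated fibroblast markers (6 of 8 measured) read 0.48, 0.08 and 0.00 on the affected arrays, against -0.02, -0.13 and -0.15 on the controls. Lymphocyte markers and nerve and Schwann markers had medians within 0.23 of 0 on every array.

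Some control probe sets set affected 1 and affected 3 apart. The 36 probe sets of bacterial spike transcripts (dap, lys, phe and thr) had medians of 0.58, -0.19 and 2.38 on affected 1, affected 2 and affected 3, against values between -0.14 and -0.01 on the controls. Those of bioC read -1.53, -0.04 and -1.28 on the affected arrays, against 0.06 to 0.14 on the controls. The 3' minus 5' signal of beta-actin, a measure of RNA integrity, was 0.31, -0.18 and 0.58 on the affected arrays, against 0.08, 0.11 and -0.34 on the controls. That of GAPDH was 0.02, 0.14 and -0.03 on the affected arrays, against -0.04, 0.15 and -0.14 on the controls, and did not set affected 1 and affected 3 apart. SFRP1 and DKK2 were higher on affected 1 and affected 3 than on affected 2, while DKK3 and WIF1 were highest on affected 2. FRZB was high on both affected 1 and affected 2, and SFRP2 was highest on affected 1. The part of these array differences in the results was not tested beyond the values for affected 2 alone.

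**Figure D3:**
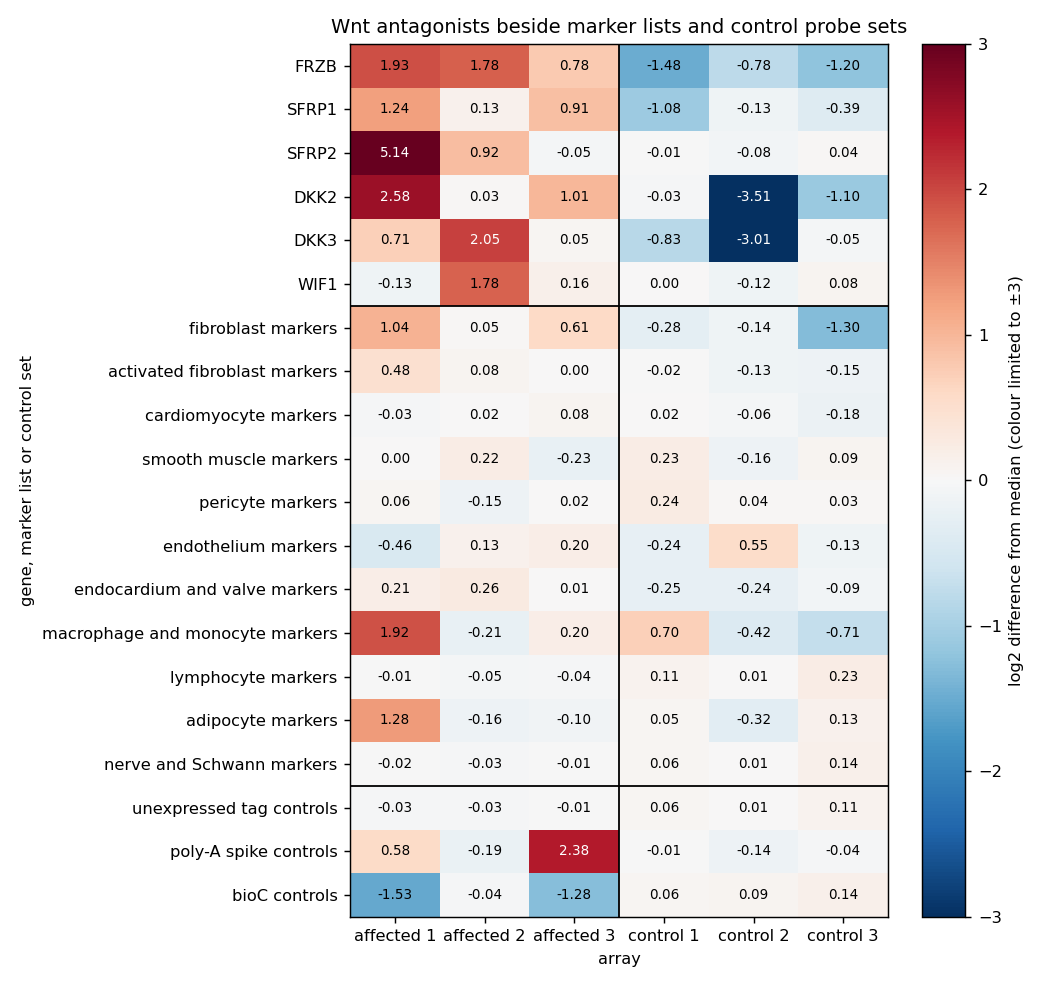
Log2 difference from the median (colour, limited to 3 either way, with the value printed) on the 3 affected and 3 control arrays (columns) for the means of the 6 genes (upper block), the medians of 11 cell type marker lists (middle block) and the medians of 3 kinds of control probe sets (lower block). Fibroblast markers read 1.04, 0.05 and 0.61 on the affected arrays, against -0.28, -0.14 and -1.30 on the control arrays.

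The remaining genes of Wnt signalling were compared in limma over all 42924 probe sets, to set the 6 antagonists beside their ligands, receptors and targets. Of 120 genes in 8 lists by role, 112 had 173 probe sets. None passed the adjusted threshold in limma, where 1 probe set of the whole array did (0.00233%), one with no gene symbol in the annotation. At an unadjusted p under 0.05 there were 12 of the 173 (6.94%), beside 10.9% of all probe sets. Without control 2 there were 59 (34.1%), beside 35.7% of all, and with any other single array left out there were 6 to 10. A variance trend on range also gave 59, beside 28.7% of all, and age as a term gave 36 (20.8%), beside 29.5% of all. In the fit without these changes, with a difference of at least 2-fold as well, 1 was higher and 0 were lower, beside 1.16% and 0.333% of all.

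That single probe set belonged to WLS, the carrier that brings Wnt ligands to the cell surface. It read 1.36, 0.02 and 1.24 on affected 1, affected 2 and affected 3, against -0.14, -0.02 and -0.32 on the controls, a difference of 1.03 (SE 0.39, limma adjusted p = 0.296). Affected 2 lay beside the controls, as it nearly did for SFRP1. The other WLS probe sets differed by 0.41, 0.40 and -0.03. By fold alone, 1 of the 173 probe sets of the lists was at least 2-fold higher, beside 2.53% of all. None was at least 2-fold lower in affected hearts, beside 0.764% of all. With single arrays left out, 0 to 4 were past 2-fold higher, beside 1.70% to 3.96% of all, and 0 to 2 lower.

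No probe set of the close relatives of the 6 genes was past 2-fold in either direction, beside 2.53% of all probe sets higher and 0.764% lower. The other Dickkopf genes differed by -0.08 for DKK1, -0.07 for DKK4 and -0.48 for DKKL1 (SE 0.25, limma adjusted p = 0.296), while SFRP5 differed by -0.18 and the 3 probe sets of SFRP4 by -0.26, -0.10 and 0.06. KREMEN1 and KREMEN2, the partners with which Dickkopf proteins remove LRP6 from the surface, differed by -0.08 and -0.07. In this list of other secreted or surface inhibitors, 15 of 16 genes were measured, with a median of -0.08 and values from -0.55 to 0.09 over 19 probe sets. Of these 19, 2 had a range of at least 1 over the arrays, without which a 2-fold difference is not possible. The smallest p belonged to CER1 at -0.20 (SE 0.07, limma adjusted p = 0.296), followed by TRABD2A at -0.12.

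Among ligands and genes of their secretion, 19 of 21 genes were measured, and their 28 probe sets had a median difference of -0.08. The 3 ligand genes with the smallest p were WNT16 at -0.29, WNT2 at -0.21 and WNT10A at -0.16 (limma adjusted p = 0.296 for each). Control probe sets for unexpressed tags also had a negative difference, with a median of -0.08. The 17 probe sets for unexpressed tags read -0.03, -0.03 and -0.01 on affected 1, affected 2 and affected 3, against 0.06, 0.01 and 0.11 on the controls. Pearson's r with that profile was 0.48 for WNT16, 0.996 for WNT2 and 0.79 for WNT10A, and its part in their differences was not tested. Of the 173 pathway probe sets, 81 followed the profile at r over 0.9, as did 41.5% of all probe sets. Among the 12 of the secreted antagonists 0 did. The profile is lower on the affected arrays and these genes were picked for being higher there, so nothing is read from this 0.

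The groups often failed to overlap by small margins. Every control value exceeded every affected value in 92 of the 173 pathway probe sets, beside 46.9% of all probe sets. The affected values were all above in 5, beside 5.37% of all.

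Among receptors and co-receptors (15 of 16 genes, 22 probe sets, median -0.07), LRP5 had the smallest p. Its probe sets were higher by 0.87 (SE 0.23, limma adjusted p = 0.296) and 0.61, while its partner LRP6 differed by -0.20, with its highest value, 0.72, on affected 2. The first LRP5 probe set read 0.12, 0.62 and 0.89 on affected 1, affected 2 and affected 3, against -0.33, -0.12 and -0.52 on the controls. The receptor FZD2 differed by 0.96 (SE 0.92), with affected values of 2.27, -0.80 and 0.71, against control values of 0.85, -0.71 and -0.83. FZD3, FZD7 and PTK7, the others with the smallest p, differed by -0.29, -0.10 and -0.14. FZD7 and PTK7 each had another probe set, at -0.09 and -0.06.

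In the R-spondin module, whose ligands RSPO2 and RSPO3 enhance Wnt signals by sparing receptors from the ligases RNF43 and ZNRF3, all 9 genes were measured. Their 11 probe sets had a median of -0.11 and ran from -0.55 to 0.03. LGR4, a receptor for these ligands, differed by -0.55 (SE 0.17), -0.25 and -0.22 in its 3 probe sets. RSPO2, RSPO3 and RNF43 differed by -0.11, -0.18 and -0.08.

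Cytoplasmic genes of the pathway (15 of 17, 30 probe sets) had a median of -0.05. CTNNB1, which encodes beta-catenin, differed by 0.17 and 0.10. The tankyrase genes, whose products mark axin for degradation, differed in opposite ways, with TNKS at 0.91 (SE 0.35) and TNKS2 at -0.36 (SE 0.08). The limma adjusted p was 0.296 for each. TNKS read 0.10, 0.22 and 0.04 on the affected arrays, against -1.01, -0.04 and -1.32 on the controls, so control 2 lay beside the affected arrays. APC, a scaffold of the destruction complex, differed by 0.53 in the probe set with the smallest p and by 0.30, 0.22, -0.05 and -0.16 in the others. The kinase CSNK1E differed by -0.21 in the probe set with the smallest p and by -0.51 and -0.04 in the others. Nuclear partners (10 of 12 genes, 19 probe sets) had a median of -0.17. By probe set, TLE1 differed by -0.46 and -0.35, TCF7L2 by -0.38, -0.17 and -0.04, PYGO1 by -0.26 and 0.16, and TLE3 by -0.14.

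Genes that beta-catenin is known to switch on were all measured, 16 genes in 26 probe sets, with a median of -0.11. AXIN2, the most widely used readout of the pathway, differed between -0.45 and 0.09 over 6 probe sets. The probe set at -0.45 (SE 0.96) read 2.68 on control 2 and 1.32 on affected 2, against values between -0.43 and 0.05 on the other arrays. CCND1, the cell cycle gene cyclin D1, was higher by 0.98 (SE 0.43) and 0.88 (SE 0.35), with control 1 and control 3 low at -0.55 and -1.25 in the second probe set and control 2 at 0.00, level with affected 2. FGF18, LEF1 and NKD1 differed by -0.19, -0.11 and -0.29, with another LEF1 probe set at -0.15. The beta-catenin independent branch (13 genes, 18 probe sets, median -0.08) had DAAM2 at -0.19, PRICKLE2 at -0.17, VANGL2 at -0.16 and NFATC3 at -0.10 with the smallest p. The other NFATC3 probe sets differed by -0.54 and -0.01. Of the 32 pathway genes named for their p, 27 were lower. The probe sets of 16 of these 27 followed the profile of the unexpressed tags at r over 0.9, as did 41.5% of all probe sets. That profile is lower on the affected arrays and these 27 were taken as lower there, so nothing is read from the 16.

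**Figure D4:**
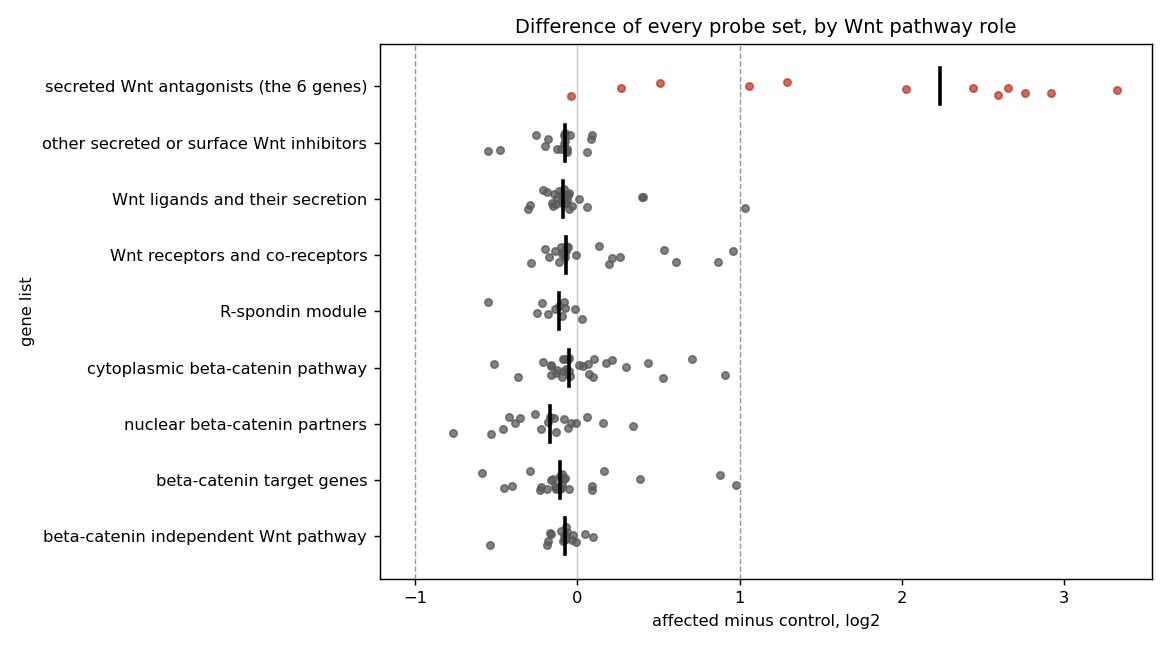
Affected minus control difference on the log2 scale (x axis) of every probe set, as 1 point each, for the 6 secreted antagonists (red, upper row) and 8 lists of other Wnt pathway genes (grey). Vertical bars mark each list's median and dashed lines a 2-fold difference. The antagonists, which were chosen for their differences, run from -0.04 to 3.33. Of the 173 other probe sets 1, of WLS at 1.03, lies past 2-fold, beside 2.53% of all higher and 0.764% lower.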

How the data were processed

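The deposited table holds 43035 probe sets on 6 arrays. The authors' values were taken as log2, inferred from GCRMA in the submitters' processing notes, which also name MAS5 with no role, and from their range. Every row has a median of 0, so the values carry no level, and the normalization between arrays is not given in the sources used here. Tests were run without the 111 control probe sets. The array annotation gives 1 symbol for 29254 probe sets and several for 439, and does not list 13231. No sequences or coordinates are printed, since the genome build is not given in the sources used here.

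The test was limma's moderated test (lmFit, eBayes) of group, two-sided and unfiltered, in limma 3.58.1 under R 4.3.3. It had 4 residual degrees of freedom and a prior of 1.13. P-values were adjusted by Benjamini-Hochberg over all 42924 probe sets, at a threshold of 0.05. The steps were tested on simulated data. A gene's value is the mean of its probe sets. The members and all lists were chosen with earlier results of these data known. Named pathway genes are up to 4 per list with the smallest p, 1 probe set each. Others named in the text (SFRP4, DKK1, DKK4, KREMEN1, KREMEN2, FZD2, LRP6, CTNNB1, AXIN2) were chosen after their values were seen. Likeness took the 3 genes of highest Pearson's r per member. A motif search in promoters was planned and not run.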

Additional observations from a re-analysis of the deposited data

How the results depend on the processing

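The gene mean differences of the 6 antagonists stayed above 0 in all alternatives. Among single probe sets with small differences, the flat SFRP2 probe set, at -0.04, went to 0.01 after quantile normalization and 0.03 after median centring. The WIF1 S1_at probe set, at 0.27, went to -0.185 without affected 2. Apart from left-out arrays, the gene means moved by more than the spread between replicates in 3 cases, to 0.66 for SFRP1 and 1.79 for WIF1 with a term for affected 1 and affected 3, which rests on affected 2, and to 1.09 for DKK2 in male dogs only, an alternative chosen after seeing the data. SFRP2, at 2.02, went to 0.415 in male dogs only and to 0.93 with the term for affected 1 and affected 3. These moves were not counted among the 3, and the SD of SFRP2 was 2.76 in affected and 0.06 in control hearts. Nor was the move of DKK3 from 2.23 to 3.345 with that term counted. Its SD was 1.02 in affected and 1.53 in control hearts. With 1 array left out the gene means ran from 2.44 to 3.01 for FRZB, 1.02 to 1.61 for SFRP1, 0.45 to 3.04 for SFRP2, 1.77 to 3.51 for DKK2, 1.38 to 2.86 for DKK3 and 0.03 to 0.98 for WIF1. After quantile normalization they were 2.36, 1.14, 1.83, 2.26, 2.11 and 0.70 in that order of genes.

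The 1 probe set past the adjusted threshold became 6 without the 40% of probe sets of smallest range. It became 0 in limma after quantile normalization, with age, with the replicate block, with the term for affected 1 and affected 3, with a variance trend on range and in male dogs only, where 6329, 12664, 4453, 1762, 12322 and 6645 probe sets had an unadjusted p under 0.05. With 1 array left out it was 0 to 5. The 639 probe sets that were at least 2-fold apart with an unadjusted p under 0.05 became 305 with a variance trend on range, 976 with age and 1110 in male dogs only, and 383 (without control 3) to 1212 (without control 2) with 1 array left out. No pathway gene was called in any of these fits. The probe sets of the 32 pathway genes named for their p kept their direction where recomputed, in all but the variance trend and robust fits, and the others named were not recomputed singly. The replicate numbers were not taken as pairs. Same-numbered deviations correlated at 0.27, 0.15 and 0.02, and different-numbered ones between -0.23 and 0.04. With 1 affected and 1 control array per number, the block cannot change a difference, so its unchanged values say nothing of pairing. The cause of the changes between fits was not tested.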
